A study of Mus musculus with 6 samples.

Results

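A set of 9 genes of lytic cell death was followed through single-cell RNA sequencing of mouse hearts after experimental myocardial infarction. The 9 genes, Gsdmd, Gsdme, Casp4, Casp8, Ripk1, Ripk3, Mlkl, Ninj1 and Zbp1, were listed by symbol and not chosen by their level, and all 9 were found among the 32285 genes counted. The cells were live non-cardiomyocytes, sorted from digested ventricles of male mice aged 8 to 12 weeks by Calcein-AM and DAPI staining. Wild-type mice (WT, strain C57BL/6JRj) and knockout mice for Trpm4, which encodes a calcium-activated cation channel (KO, strain B6.Cg-Trpm4tm1.2-PG), had either a sham operation or a ligated left anterior descending artery. Sham hearts of both genotypes were sampled at 24 h, and ligated hearts of both genotypes at 24 h and at 72 h. Each of the 6 groups is 1 library made from the pooled cells of 4 mice, so no difference between groups has a replicate check and none was tested. In what follows, words such as higher or lower describe these libraries.

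Pyroptosis and necroptosis both end in rupture of the plasma membrane. In pyroptosis, inflammatory caspases cut a gasdermin: caspase-11, the product of mouse Casp4, is activated by cytosolic lipopolysaccharide and cuts gasdermin D (Gsdmd), and caspase-3 can cut gasdermin E (Gsdme). The freed ends form membrane pores, and NINJ1 then clusters in the membrane and tears it. In necroptosis, the kinases RIPK1 and RIPK3 assemble when caspase-8 (Casp8) is inactive, and RIPK3 phosphorylates the pseudokinase MLKL, which permeabilizes the membrane. ZBP1 is an interferon-induced sensor of Z-form nucleic acids that binds RIPK3. These proteins are mostly controlled after translation, so transcript levels show which cells hold the parts and do not measure cell death. In GRCm38 with the GENCODE M21 annotation, the pyroptosis genes lie as Gsdmd (ENSMUSG00000022575) at chr15:75862327-75867408 on the plus strand, Gsdme (ENSMUSG00000029821) at chr6:50188888-50263862 on the minus strand, Casp4 (ENSMUSG00000033538) at chr9:5308828-5336783 on the plus strand and Ninj1 (ENSMUSG00000037966) at chr13:49187485-49196244 on the plus strand. The shared regulators are Casp8 (ENSMUSG00000026029) at chr1:58795374-58847503 on the plus strand and Ripk1 (ENSMUSG00000021408) at chr13:34002363-34037147 on the plus strand. The necroptosis genes are Ripk3 (ENSMUSG00000022221) at chr14:55784995-55788865 on the minus strand, Mlkl (ENSMUSG00000012519) at chr8:111311797-111338177 on the minus strand and Zbp1 (ENSMUSG00000027514) at chr2:173206612-173218923 on the minus strand. Counts are of 3′ ends and were not assigned to exons or introns here.

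Of 34940 deposited cells, 32051 were kept. Their UMIs (unique molecular identifiers, here transcript counts) were summed per library and cell class and expressed in CPM, counts per 1000000 UMIs of that class. The 9 genes together held between 12973 and 33849 UMIs per library. Classes are called monocyte/macrophage-like, neutrophil-like, endothelial-like, fibroblast-like and so on from marker genes, and the short names are used from here on. The fixed naming rule left between 10.9% and 20% of the kept cells of a library unnamed. Among the unnamed were cluster 6, led by Tnf and Tnfaip3, and cluster 15, led by Ifit1 and other interferon-induced genes, which a wider naming rule added after seeing the data places with the neutrophils. For the 9 genes, values under that wider rule are given where it moved a printed neutrophil level or ratio by over 1.5 times. They are also given where it turned a direction. Neutrophil values of other genes are by the fixed naming only. The KO library at 72 h stood apart in depth, with a median of 1354 UMIs per kept cell against 3062 to 8009.5 in the other 5. In its fibroblasts the summed level of 14 monocyte/macrophage markers reached 38.4% of the level in monocyte/macrophage cells of that library, against 11% in WT at 72 h and 1.17% to 2.52% in the other 4 libraries. Between 26 and 48 cell barcodes per library were shared with another library. Trpm4 UMIs were counted in every library, with 8.79, 5.52 and 4.29 CPM in WT at sham, 24 h and 72 h and 6.20, 3.46 and 2.57 CPM in KO. Which exons the allele removes is not stated in the labels, so these 3′ counts check nothing. Ranges in parentheses after a ratio, a share or a level are exact 95% intervals that cover counting error only.

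Among the genes that execute pyroptosis, Ninj1 and Gsdme differed more between the 4 main classes than Gsdmd did. Ninj1, the membrane-rupture gene, was at 335 CPM in monocyte/macrophage cells of WT sham, 412 in KO sham, 424 in WT at 24 h, 552 in KO at 24 h, 485 in WT at 72 h and 408 in KO at 72 h. In neutrophils the 6 values, in the same order, were 414, 437, 411, 544, 683 and 540 CPM. With the wider naming they were 730, 657, 513, 609, 807 and 647 CPM, so that the shams stood above the 24 h library of the same genotype (24 h against sham 0.703, 0.658 to 0.751, in WT and 0.927, 0.867 to 0.992, in KO), where the fixed naming gave 0.993 (0.891 to 1.11) and 1.24 (1.12 to 1.38). Both classes stood above the endothelial cells (43.0, 45.7, 61.8, 77.8, 101 and 161 CPM) and the fibroblasts (36.3, 46.9, 42.9, 41.1, 43.9 and 192 CPM) in every library. Neutrophils were above monocyte/macrophage cells beyond counting error in WT sham and in both 72 h libraries, and the intervals of these 2 classes overlapped in the other 3. Platelets, counted in 4 libraries, also carried Ninj1, with 446 to 618 CPM from 24 to 72 UMIs, while their Gsdmd rested on at most 1 UMI per library. In the libraries with enough of them, pericytes held 60.2 to 371 CPM of Ninj1 and smooth muscle cells 90.9 to 180. The highest pericyte levels were 371 CPM in KO at 72 h and 264 in WT at 24 h. Monocyte/macrophage markers in these pericytes stood at 48.7% and 27.9% of their level in monocyte/macrophage cells. In the other pericytes Ninj1 was at 60.2 to 86.5 CPM and the markers at 1.72% to 12.1%. The part of the marker signal in these levels was not tested. Cardiomyocytes held 95.9 to 322 CPM and dendritic cells 64.3 to 192. Within the neutrophil lineage Ninj1 was uneven: it was at 242 CPM in cluster 13 (led by Retnlg and S100a9), 498 in cluster 3 (led by Cd177 and Wfdc21), 669 in cluster 1 (led by Siglecf and Cxcr4) and 1058 (1025 to 1091) in the unnamed cluster 6.

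**Figure D1:**
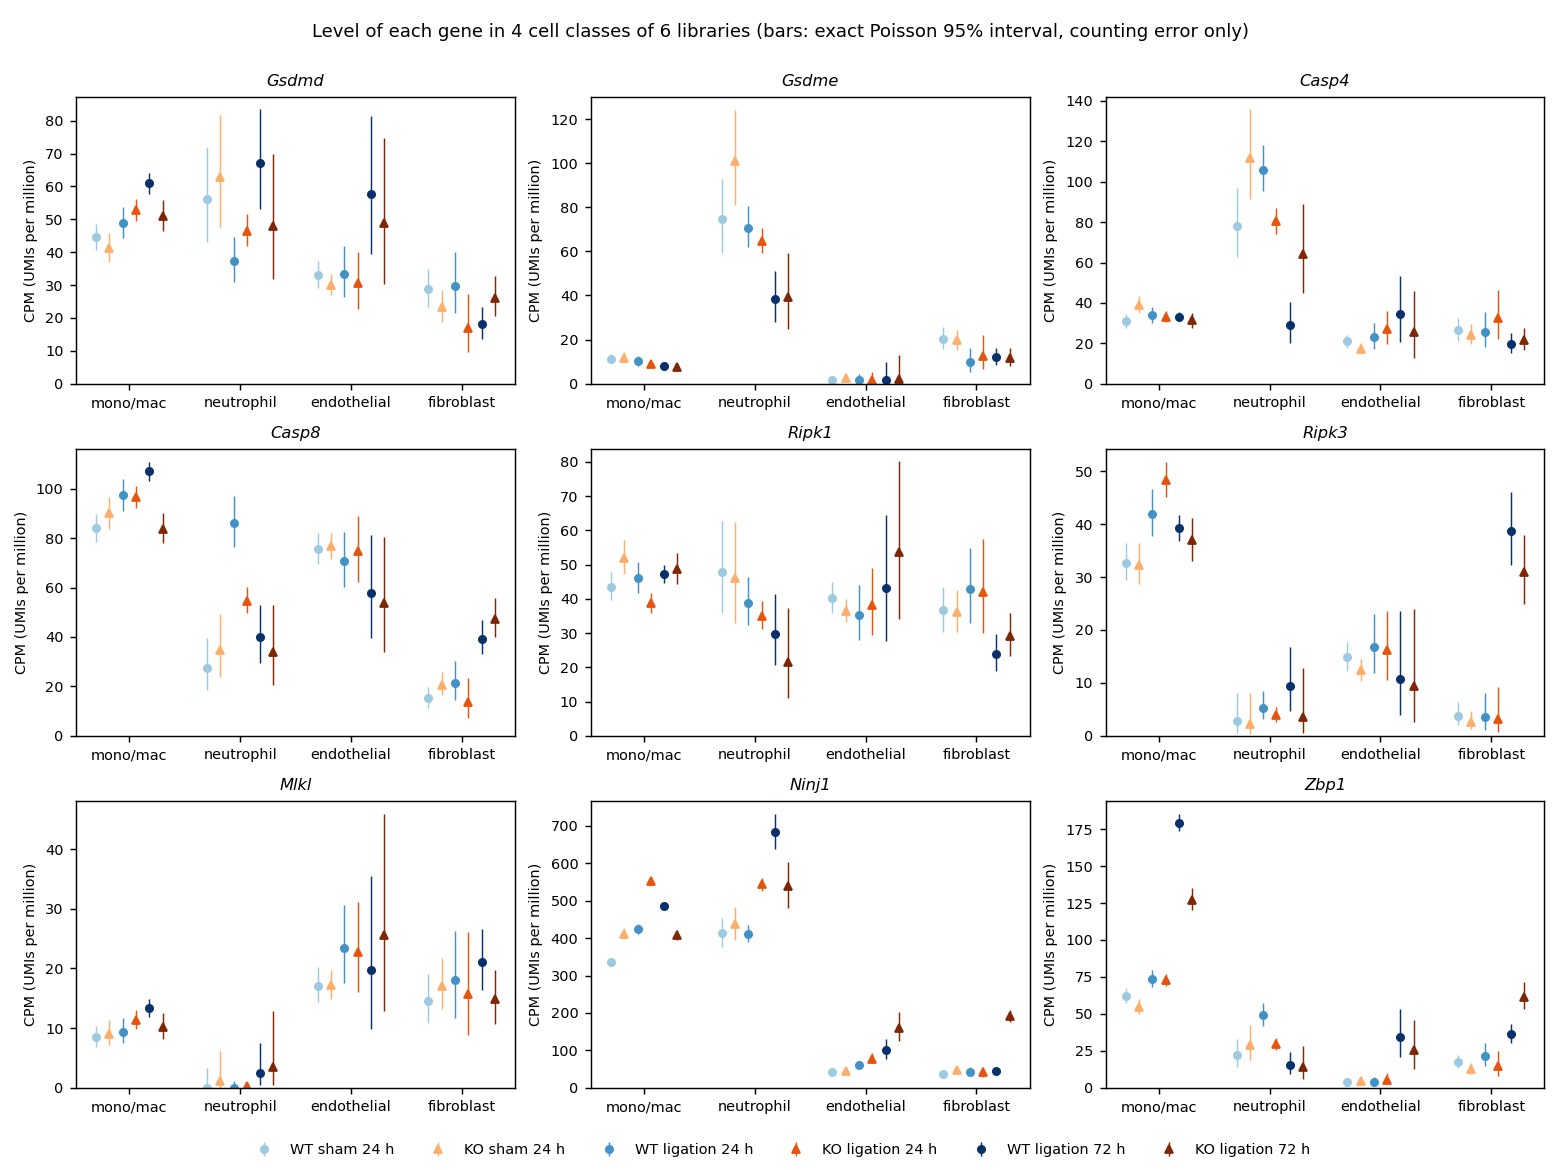
Each panel shows the level of 1 gene, in CPM from 0, in 4 cell classes, with 6 points per class in the order WT sham, KO sham, WT ligation 24 h, KO ligation 24 h, WT ligation 72 h and KO ligation 72 h. Circles are WT, triangles are KO, and bars are exact Poisson 95% intervals. Gsdme stands out in neutrophils, Mlkl is near 0 there, Ripk3 in fibroblasts is seen at 72 h, and Zbp1 is highest in monocyte/macrophage cells at 72 h.

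The neutrophil level of Gsdme was 74.6 CPM in WT sham, 101 in KO sham, 70.8 in WT at 24 h, 64.7 in KO at 24 h, 38.2 in WT at 72 h and 39.2 in KO at 72 h. Endothelial cells held 1.76 to 2.42 CPM, monocyte/macrophage cells 7.55 to 11.8 and fibroblasts 9.68 to 20.3, so the neutrophil value was the highest of these 4 classes in all 6 libraries. Among all classes with at least 50 cells it was separated from the next beyond counting error in both shams and in WT at 24 h. It was not separated from pericytes in KO at 24 h (39.6 CPM, 19.0 to 72.8, on 10 UMIs) or from cardiomyocytes in WT at 72 h (20.5 CPM, 5.57 to 52.4, from 57 cells). In KO at 72 h mesothelial cells, counted in that library only, stood at 43.1 CPM. Gsdme overlaps Mpp6 on the opposite strand by 10052 bases, and whether the counting used strand is not given in the sources used here. Gsdmd, the main pyroptotic pore former, varied less between classes: monocyte/macrophage cells held 41.2 to 60.9 CPM, neutrophils 37.3 to 67.1, endothelial cells 30.1 to 57.7 and fibroblasts 16.8 to 29.7. Smooth muscle cells were lower, at 8.78 to 9.58 CPM in the 4 libraries with enough of them.

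Casp4, which encodes the caspase of the non-canonical inflammasome, was also highest in neutrophils in 5 of the 6 libraries, though in KO at 72 h mesothelial cells (53.9 CPM) did not separate from them. The neutrophil values were 78.3 CPM in WT sham, 112 in KO sham, 106 in WT at 24 h, 80.4 in KO at 24 h, 28.9 in WT at 72 h and 64.1 in KO at 72 h. The WT value at 72 h stood below the other 5 and was no longer separated from monocyte/macrophage cells, which held 30.9 to 39.1 CPM in all 6 libraries. Endothelial cells held 17.4 to 34.3 CPM and fibroblasts 19.8 to 32.6. With the wider naming the WT neutrophil value at 72 h was 61.8 CPM (51.6 to 73.6), above monocyte/macrophage cells (30.8 CPM, 28.8 to 32.8). In the shams and at 24 h Casp4 in neutrophils was separated from the next class of at least 50 cells beyond counting error.

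The 2 regulators that decide between survival, apoptosis and necroptosis differed in how evenly they were spread. Ripk1 was the more even, with 38.7 to 51.9 CPM in monocyte/macrophage cells, 35.3 to 53.6 in endothelial cells, 23.8 to 42.9 in fibroblasts and 21.4 to 47.9 in neutrophils. In none of the 6 libraries was its highest class separated from the next beyond counting error. The lower classes stood further off at 72 h. Fibroblasts held 23.8 against 47.2 CPM in monocyte/macrophage cells in WT, and neutrophils 21.4 against 48.7 in KO. Casp8 was at 83.8 to 107 CPM in monocyte/macrophage cells and 53.6 to 76.7 CPM in endothelial cells. Its neutrophil level was 27.6 CPM in WT sham, 34.8 in KO sham, 86.2 in WT at 24 h, 54.7 in KO at 24 h, 39.9 in WT at 72 h and 33.8 in KO at 72 h, highest at 24 h in both genotypes. Fibroblasts held 15.1, 20.6, 21.4 and 13.7 CPM in the same first 4 libraries, and 39.3 and 47.3 CPM at 72 h.

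The executioners of necroptosis, Ripk3 and Mlkl, were both counted in monocyte/macrophage and endothelial cells, and both were low in neutrophils. Fibroblasts held Mlkl in all 6 libraries. Their Ripk3 level was as low as in neutrophils in the shams and at 24 h, at 2.58 to 3.77 CPM. It was 38.7 CPM in WT and 30.9 in KO at 72 h. Ripk3, the kinase that activates MLKL, was at 32.3 to 48.3 CPM in monocyte/macrophage cells and 9.32 to 16.8 in endothelial cells, and at 2.24 to 9.35 in neutrophils. Dendritic cells, with 11.8 to 43.7 CPM, reached the monocyte/macrophage range. The wider naming adds cluster 19, led by Apln, Pgf and Kit, to the endothelial cells. Their Ripk3 level was then 15.9 CPM in WT sham, 13.0 in KO sham, 28.3 in WT at 24 h, 26.5 in KO at 24 h, 44.7 in WT at 72 h and 27.2 in KO at 72 h, where the fixed naming gave 14.8, 12.4, 16.8, 16.2, 10.8 and 9.32. Mlkl was at 17.1 to 25.6 CPM in endothelial cells, 14.5 to 21.0 in fibroblasts and 17.8 to 22.2 in pericytes (5 to 11 UMIs in each of 5 libraries), with 8.47 to 13.4 CPM in monocyte/macrophage cells. In neutrophils Mlkl was close to absent at this depth: 0 UMIs in WT sham, which allows up to 2.76 CPM, 1 in KO sham, 0 in WT at 24 h, which allows up to 0.94 CPM, 2 in KO at 24 h, 3 in WT at 72 h and 2 in KO at 72 h. Neutrophils had the lowest Mlkl level of the 4 classes in every library, the highest Gsdme level in every library and the highest Casp4 level in 5. For Ripk3 they were below monocyte/macrophage and endothelial cells in all 6 libraries. At 72 h, however, they were close to endothelial cells in WT by the fixed naming (9.35 against 10.8 CPM), and in KO their level rested on 2 UMIs. With the wider naming neutrophils held 3.74 to 10.1 CPM of Ripk3 and 2 to 6 Mlkl UMIs per library. The closeness in WT at 72 h then ended, with endothelial cells at 44.7 CPM.

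The largest ratio between libraries among the 9 genes was that of Ripk3 in fibroblasts at 72 h. It was at 3.77 CPM in WT sham (13 UMIs), 2.58 in KO sham (10 UMIs), 3.46 in WT at 24 h (5 UMIs), 3.16 in KO at 24 h (3 UMIs), 38.7 in WT at 72 h (127 UMIs) and 30.9 in KO at 72 h (92 UMIs). The 4 earlier libraries lay together and both 72 h libraries far above them. Relative to 24 h the level was 11.2-fold higher in WT (4.68 to 35.1) and 9.77-fold higher in KO (3.24 to 48.3), and KO and WT at 72 h did not separate (ratio 0.797, 0.603 to 1.05). The share of WT fibroblasts with a Ripk3 UMI was 3.62% in the sham and 32.0% at 72 h, and after every cell was thinned to 1000 UMIs it was 0.565% (0.0685 to 2.03) and 2.88% (0.790 to 7.20), intervals that overlap. In smooth muscle cells Ripk3 was at 4.42 to 14 CPM.

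Nearly all of the WT signal came from 1 cluster. Cluster 11, led by the matrix genes Cthrc1, Col1a1 and Postn, held 99 of the 147 WT fibroblasts at 72 h and 125 of their Ripk3 UMIs, a level of 43.6 CPM. The same cluster stood at 38.5 CPM in KO at 72 h, where it held 848 of 1266 fibroblasts. It had at most 6 cells in any sham or 24 h library. Cluster 12, led by Clec3b and Dcn, which held most named fibroblasts of those libraries, was at 3.65 CPM in WT sham, 2.92 in KO sham, 4.14 in WT at 24 h and 3.66 in KO at 24 h. The difference between 24 h and 72 h is therefore also a difference between 2 clusters, and a change within a fibroblast type and a change of types cannot be told apart. The levels by class above also leave out cluster 32, led by Cxcl5 and Cxcl1, which only the wider naming places with the fibroblasts. That cluster held 59 WT and 68 KO cells at 24 h, and 3 and 4 at 72 h. Its median over all libraries was 20052 UMIs per cell, so the 24 h fibroblast levels lack a deeply counted part.

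**Figure D2:**
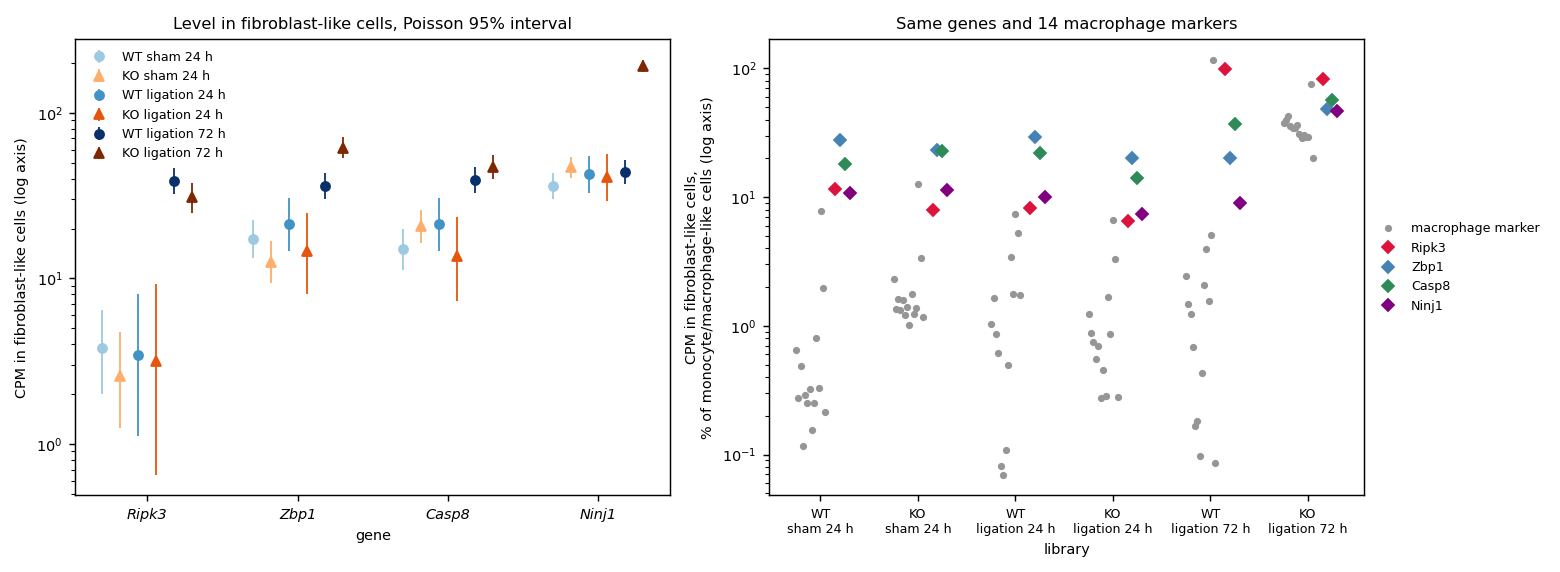
The left panel shows CPM on a log axis in fibroblasts for Ripk3, Zbp1, Casp8 and Ninj1 in the 6 libraries, with exact Poisson 95% intervals. The right panel gives the same 4 genes (diamonds) and 14 monocyte/macrophage markers (gray; a marker at 0 is not drawn) as a percent of the monocyte/macrophage level of the same library, on a log axis. In WT at 72 h Ripk3 stood at 98.8% while 13 of the 14 markers were at 5.10% or below, and in KO at 72 h all 14 markers were raised.

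Markers of monocyte/macrophage cells were read beside this result. In WT fibroblasts at 72 h, 13 of 14 monocyte/macrophage markers stood between 0.0854% and 5.10% of their level in monocyte/macrophage cells, among them Csf1r at 2.42% and Cd68 at 1.24%. The other, Fn1, a matrix gene that fibroblasts also make, stood at 116%. Ripk3 stood at 98.8%. In KO fibroblasts at 72 h all 14 markers were above 10%, with Csf1r at 37.9% and Cd68 at 42.4%, and Ripk3 stood at 83.5%. Among cells with at least 1500 UMIs, Ripk3 was still 11.2-fold (4.68 to 35.1) higher in WT and 9.39-fold (3.08 to 46.7) higher in KO, with the marker list at 11% and 37.7%.

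The sequence just upstream of Ripk3 is shown because the gene's level differed most between conditions, and that of Mlkl because it was higher in the interferon-gene clusters described later. The windows are the part of the 250 bases before the RefSeq start that lies outside the gene's own annotated exons, in GRCm38.p6, minus strand, 5′ to 3′. They are chr14:55788866-55789107 (242 bases) for Ripk3 and chr8:111338206-111338455 (250 bases) for Mlkl. Capitals mark a GC box (GGGCGG on either strand).
Ripk3: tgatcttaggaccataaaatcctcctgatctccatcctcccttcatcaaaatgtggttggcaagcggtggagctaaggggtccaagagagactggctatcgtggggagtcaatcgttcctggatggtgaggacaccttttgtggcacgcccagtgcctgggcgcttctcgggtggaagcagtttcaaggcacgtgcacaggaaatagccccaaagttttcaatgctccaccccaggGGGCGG
Mlkl: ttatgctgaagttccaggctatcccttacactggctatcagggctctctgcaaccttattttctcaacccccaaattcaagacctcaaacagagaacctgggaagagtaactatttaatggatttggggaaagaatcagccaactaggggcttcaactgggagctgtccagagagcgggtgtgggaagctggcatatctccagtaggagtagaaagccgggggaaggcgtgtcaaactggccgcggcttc
RefSeq promoter entries matched 7 of the 9 genes. None matched Gsdmd or Zbp1, so the promoters of these 2 were not searched. Motifs were searched in the whole 250 bases of each entry, own exons included, in these genes and in 1 entry each of 27025 genes. The GC box was present in the entries of Gsdme, Ripk1, Ripk3 and Ninj1, and in 32.9% of all. In Ripk3 its 1 match lay 8 bases before the start. The interferon-stimulated response element core (GAAANNGAAA) was found in none of the entries of the 7 genes, on either strand, against 3.04% of all. The gamma-activated sequence (TTCNNNGAA, which reads alike on both strands) was found only in the second of the 2 Ripk1 entries, which overlaps annotated Ripk1 exons, against 7.18%. The AP-1 motif (TGANTCA) was found in none of them, against 6.87%. An entry without these letters says nothing of the factors.

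Zbp1, the interferon-induced nucleic acid sensor, was highest in monocyte/macrophage cells among the 4 main classes of the fixed naming in all 6 libraries. There it was at 62.3 CPM in WT sham, 54.6 in KO sham, 73.5 in WT at 24 h, 72.7 in KO at 24 h, 179 in WT at 72 h and 127 in KO at 72 h. The 72 h libraries stood above the other 4, and WT above KO (KO to WT ratio 0.709, 0.664 to 0.757). In KO at 72 h mesothelial (140 CPM) and T/NK cells (137 CPM) were as high. With the wider naming, which adds cluster 15, WT neutrophils stood at 76.3 CPM at 24 h and 164 at 72 h. Beside the monocyte/macrophage values of the fixed naming, the first was within counting error (73.5 CPM, up to 79.4) and the second was lower (179 CPM). The wider naming also adds clusters 20 and 33 to the monocyte/macrophage cells, which those values leave out. Endothelial cells were the lowest of the 4 classes in the sham and 24 h libraries, with 3.77, 4.85, 3.97, 5.38, 34.3 and 25.6 CPM in the order given, the last pair from 19 and 11 UMIs. Smooth muscle cells held 0 Zbp1 UMIs in the 4 libraries with at least 50 of them, which allows up to 2.21 CPM in the deepest. Thinned to 1000 UMIs, the share of monocyte/macrophage cells with a Zbp1 UMI was 6.08% to 7.27% in the sham and 24 h libraries, 15.8% (14.2 to 17.6) in WT at 72 h and 11.6% (10.0 to 13.4) in KO at 72 h. The unthinned shares at 72 h were 61.1% and 24.8%.

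Zbp1 in monocyte/macrophage cells was 2.44-fold (2.24 to 2.65) higher at 72 h than at 24 h in WT, and 1.75-fold (1.61 to 1.89) higher in KO. Cluster 14, led by Cxcl10, Ccl8, Irf7 and Ifit3, made up 27.7% of the WT and 8.40% of the KO monocyte/macrophage cells at 72 h, and 0.257% to 1.66% in the other libraries. The KO share is taken over 2405 cells, of which 1093 were in the shallow cluster 9, led by Ms4a7 and Lgmn. Cluster 9 had a median of 819.5 UMIs over all libraries and 45 cells in WT at 72 h. Its part in the gap between the 2 shares was not tested. Cluster 14 was read further by its level. Its Zbp1 level at 72 h was 428 CPM in WT and 431 in KO. Without that cluster the monocyte/macrophage level was 68.5 CPM at 24 h and 79.9 at 72 h in WT, a ratio of 1.17 (1.06 to 1.29), so the 2-fold difference ended. In KO the levels without it were 65.9 and 95.3 CPM, a ratio of 1.45 (1.32 to 1.59). KO then stood slightly above WT at 72 h (ratio 1.19, 1.09 to 1.30) instead of below it.

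The members differed in how closely they followed the interferon-gene clusters, which were formed without the 9 genes and are compared here as a description. In WT at 72 h, cluster 14 against the other monocyte/macrophage cells had Zbp1 at 428 against 79.9 CPM (5.36-fold, 5.03 to 5.72), Mlkl at 24.0 against 9.11 (2.64-fold, 2.11 to 3.30), Casp4 at 53.2 against 25 (2.13-fold, 1.85 to 2.45), Gsdmd at 80.3 against 53.2 (1.51-fold, 1.36 to 1.68) and Casp8 at 137 against 94.4 (1.45-fold, 1.34 to 1.58). Ripk1 (1.08-fold, 0.946 to 1.22) and Ripk3 (1.05-fold, 0.910 to 1.21) stood level, and Ninj1 was lower (0.844, 0.810 to 0.880). KO at 72 h gave the same order for the first 2, with Zbp1 at 4.52-fold (3.98 to 5.12) and Mlkl at 3.57-fold (2.16 to 5.73), and Casp4 at 1.82-fold (1.29 to 2.51).

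Cluster 15, the unnamed cluster led by Ifit1, was set against the named neutrophils in the same way. In WT at 72 h it had Zbp1 at 561 CPM against 15.3 in named neutrophils (36.7-fold, 22.8 to 62.7) and Casp4 at 120 against 28.9 (4.14-fold, 2.70 to 6.46). In KO at 72 h Zbp1 was at 208 against 14.2 CPM (14.6-fold, 6.52 to 37.0) and Casp4 at 230 against 64.1 (3.58-fold, 2.15 to 5.93). At 24 h Zbp1 was at 416 against 49.2 CPM in WT and 333 against 29.4 in KO. Over all libraries Ripk3 was 2.26-fold (1.28 to 3.82) higher in cluster 15, on 19 UMIs, and Ninj1 1.34-fold (1.26 to 1.42) higher. Cluster 14, summed likewise, had Ripk3 at 1.05-fold (0.934 to 1.17) and Ninj1 at 0.889 (0.858 to 0.921). In WT at 72 h alone, Ripk3 in cluster 15 was at 0.382 (0.0412 to 1.75) on 2 UMIs, and Ninj1 at 1.15-fold (1.02 to 1.29). Mlkl rested in cluster 15 on 10 UMIs (5.27 CPM) over all libraries, so even these neutrophil-lineage cells held little of it, and in WT at 72 h on 1 UMI. In endothelial cluster 28, led by Iigp1 and Ifi44, summed over the libraries, Zbp1 was at 30.6 against 4.21 CPM (7.26-fold, 4.81 to 10.7) and Mlkl at 34.9 against 17.5 (1.99-fold, 1.41 to 2.75), while Casp8 (1.06-fold, 0.851 to 1.31) and Ripk3 (0.988, 0.558 to 1.63) were level.

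**Figure D3:**
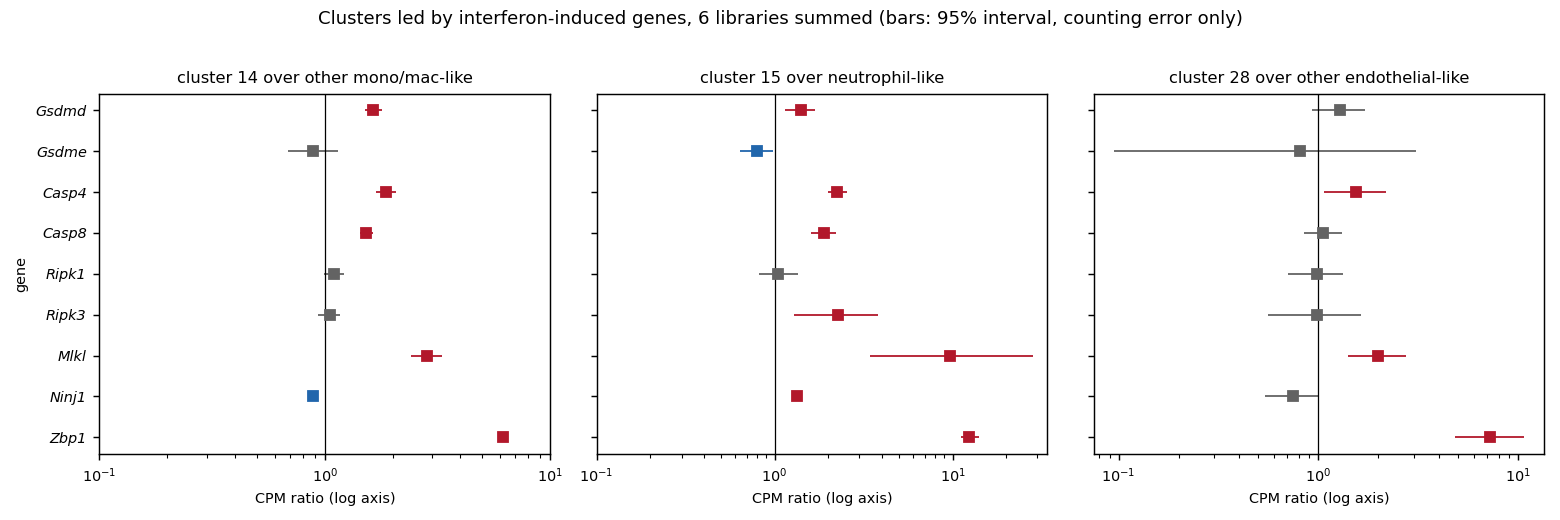
Each point is the ratio of CPM, on a log axis, in a cluster led by interferon-induced genes over the comparison cells named above each panel, summed over the 6 libraries, with 95% intervals for counting error. Red points lie above 1 and blue points below 1 beyond that error, and gray points do not. Zbp1 is the farthest right in all 3 panels (6.16-fold, 12.4-fold and 7.26-fold) and Mlkl is next, while the Ripk1 intervals include 1.

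Few of these genes differed by 2-fold between ligation at 24 h and sham. A gene counted as measured in a class with at least 50 UMIs over the 2 libraries and 100 cells in each, and as called with at least a 2-fold difference. In WT, 31 of 36 combinations of gene and class were measured and 3 were called. These were 2 of 7 in neutrophils, where 13.8% of all genes passed, 1 of 8 in fibroblasts (3.77%), 0 of 9 in monocyte/macrophage cells (5.96%) and 0 of 7 in endothelial cells (3.72%). In KO 32 were measured and none was called: 0 of 7 in neutrophils (8.55%), 0 of 8 in fibroblasts (4.32%), 0 of 9 in monocyte/macrophage cells (8.36%) and 0 of 8 in endothelial cells (3.89%). The neutrophil share in WT rests on so few genes that it is not read as a result about them.

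The 2 neutrophil calls were Casp8 and Zbp1. Casp8 stood at 27.6 CPM in the WT sham and 86.2 at 24 h, a ratio of 3.12 (2.14 to 4.71), and in KO at 34.8 and 54.7 CPM (1.57, 1.09 to 2.34). Zbp1 stood at 22.1 and 49.2 CPM in WT (2.23, 1.44 to 3.58) and at 29.2 and 29.4 CPM in KO (1.01, 0.672 to 1.58). With the wider naming the WT ratios were 2.96 (2.27 to 3.9) for Casp8 and 2.92 (2.19 to 3.95) for Zbp1, and the KO ratio for Zbp1 was 1.58 (1.18 to 2.17). Both fell under 2-fold at a Leiden resolution of 2, with log2 ratios of 0.94 and 0.47. Gsdme in WT fibroblasts went from 20.3 to 9.68 CPM (0.477, 0.248 to 0.854), on 14 UMIs at 24 h. That call ended at a Leiden resolution of 0.5 and with the wider naming, each with a log2 ratio of 0.13, without doublet removal (-0.98) and at a mitochondrial limit of 10% (-0.58).

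Below 2-fold, 3 members were higher in monocyte/macrophage cells of both genotypes at 24 h, beyond counting error. The share of all genes beyond counting error was not counted, so this number is not read as a result about the members. Ripk3 was 1.28-fold (1.11 to 1.49) higher in WT and 1.5-fold (1.30 to 1.72) in KO. Ninj1 was 1.27-fold (1.21 to 1.33) and 1.34-fold (1.29 to 1.39) higher. Zbp1 was 1.18-fold (1.06 to 1.32) and 1.33-fold (1.20 to 1.49) higher. Casp8 was higher in WT (1.16, 1.05 to 1.28), with 1.07 (0.986 to 1.17) in KO, and Gsdmd in KO (1.28, 1.13 to 1.46), with 1.10 (0.961 to 1.26) in WT. Other members were lower beyond counting error in KO: Ripk1 (0.746, 0.661 to 0.843), Gsdme (0.745, 0.576 to 0.967) and Casp4 (0.845, 0.737 to 0.970). In WT their intervals included 1. In endothelial cells Ninj1 was 1.44-fold (1.17 to 1.76) and 1.70-fold (1.39 to 2.06) higher.

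**Figure D4:**
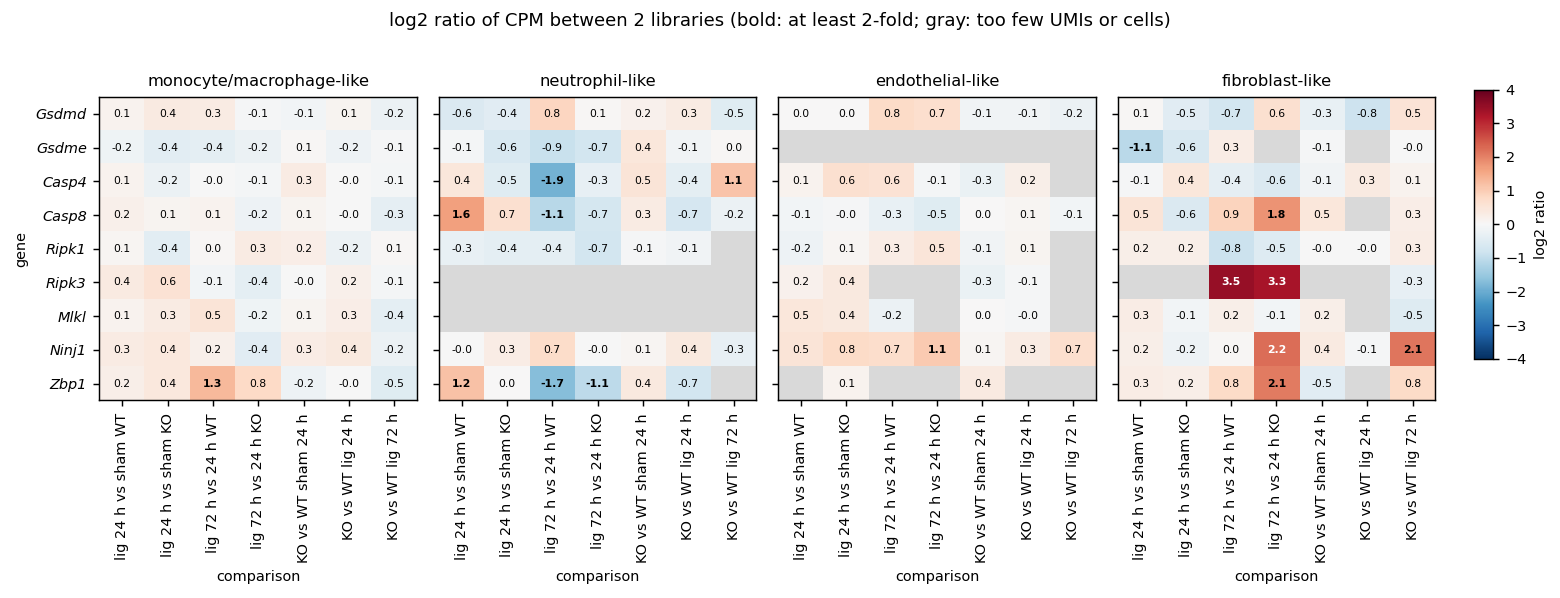
Each square is the log2 ratio of CPM of 1 gene between 2 libraries in 1 class, for 7 comparisons, from blue (lower) to red (higher). Bold numbers are differences of at least 2-fold and gray squares had too few UMIs or cells. The Ripk3 squares of fibroblasts at 72 h against 24 h (3.49 in WT and 3.29 in KO) are the deepest, and the KO against WT columns are pale except at 72 h.

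From 24 h to 72 h, the members called in neutrophils were lower and those called in the other classes higher. In WT 31 combinations were measured and 5 called, 2 higher and 3 lower: 3 of 7 in neutrophils, where 41.0% of all genes passed, 1 of 9 in fibroblasts (30.9%), 1 of 9 in monocyte/macrophage cells (15.8%) and 0 of 6 in endothelial cells (8.53%). In KO 29 were measured and 6 called, 5 higher and 1 lower: 4 of 8 in fibroblasts (24.5%), 1 of 7 in neutrophils (37.3%), 1 of 5 in endothelial cells (10.5%) and 0 of 9 in monocyte/macrophage cells (9.39%). The neutrophil counts and the WT fibroblast count are near or below the background, and the KO fibroblast count rests on 8 genes. The whole scale moved in neutrophils, with a median log2 ratio over all genes of 0.52 in WT and 0.51 in KO, while the medians of the 7 members were -0.89 and -0.69. In fibroblasts the medians over all genes were -0.26 and -0.21.

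In WT neutrophils Casp4 went from 106 to 28.9 CPM (0.272, 0.185 to 0.387), Casp8 from 86.2 to 39.9 (0.463, 0.332 to 0.633) and Zbp1 from 49.2 to 15.3 (0.311, 0.179 to 0.507). Gsdme went from 70.8 to 38.2 CPM (0.540, 0.383 to 0.746), and Ninj1 from 411 to 683 (1.66, 1.52 to 1.81). In KO Casp4 went from 80.4 to 64.1 CPM (0.798, 0.553 to 1.12), Casp8 from 54.7 to 33.8 (0.619, 0.369 to 0.979), Zbp1 from 29.4 to 14.2 (0.484, 0.206 to 0.969) and Ninj1 from 544 to 540 (0.992, 0.880 to 1.12). Cluster 3, led by Cd177, held 632 of the 855 WT neutrophils at 24 h and 4 at 72 h, where cluster 1, led by Siglecf, held 498 of 554. The Casp4, Casp8 and Zbp1 calls in WT ended at a Leiden resolution of 2, at log2 ratios of -0.96, -0.88 and -0.53.

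The direction for Zbp1 in neutrophils depended on whether cluster 15 was counted. With the wider naming it stood at 76.3 CPM at 24 h and 164 at 72 h in WT, 2.15-fold (1.84 to 2.52) higher where the fixed naming gave a lower level. In KO it stood at 50.2 and 43.7 CPM (0.872, 0.612 to 1.21). Cluster 15 made up 7.94% of WT neutrophils by that naming at 24 h and 27.4% at 72 h, and 6.59% and 15% of KO neutrophils. Without it the wider naming gave 44.2 and 15.4 CPM in WT. Casp4 by the wider naming went from 131 to 61.8 CPM in WT (0.471, 0.385 to 0.572), and Casp8 from 91.2 to 43.3 (0.475, 0.373 to 0.600), so both kept their direction.

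In KO fibroblasts the genes called beside Ripk3 were Ninj1, Zbp1 and Casp8. Ninj1 went from 41.1 to 192 CPM (4.67-fold, 3.38 to 6.64), Zbp1 from 14.7 to 61.7 (4.19-fold, 2.43 to 7.81) and Casp8 from 13.7 to 47.3 (3.46-fold, 1.96 to 6.65). In WT the same genes went from 42.9 to 43.9 CPM (1.02-fold, 0.756 to 1.40), from 21.4 to 36.3 (1.69-fold, 1.13 to 2.60) and from 21.4 to 39.3 (1.84-fold, 1.23 to 2.81). In KO at 72 h Ninj1 stood at 47.0%, Zbp1 at 48.6% and Casp8 at 56.4% of their monocyte/macrophage level, beside a marker list at 38.4%. The part of that marker signal in these ratios was not tested. Leaving out cluster 24, of which 391 of 416 cells were from KO at 72 h, took the log2 ratio of Ninj1 from 2.22 to 1.27. The endothelial call was Ninj1 in KO, from 77.8 to 161 CPM (2.07-fold, 1.52 to 2.79), beside monocyte/macrophage markers at 17.8%, and it ended among cells with at least 1500 UMIs (log2 ratio 0.74).

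Between the genotypes, no member differed by 2-fold in the shams or at 24 h. In the shams 32 combinations were measured and none was called: 0 of 9 in monocyte/macrophage cells (1.60% of all genes passed), 0 of 7 in neutrophils (2.18%), 0 of 8 in endothelial cells (1.48%) and 0 of 8 in fibroblasts (1.72%). At 24 h after ligation 27 were measured and none was called: 0 of 9 in monocyte/macrophage cells (1.90%), 0 of 7 in neutrophils (4.16%), 0 of 7 in endothelial cells (2.18%) and 0 of 4 in fibroblasts (2.59%). At 72 h 26 were measured and 2 called: 1 of 9 in fibroblasts (12.4%), 1 of 5 in neutrophils (1.63%), 0 of 9 in monocyte/macrophage cells (3.12%) and 0 of 3 in endothelial cells (5.65%).

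The fibroblast call was Ninj1, at 192 CPM in KO and 43.9 in WT (4.37-fold, 3.63 to 5.28). It rests on the shallow library with the raised macrophage markers, and without cluster 24 the log2 ratio was 1.20. The neutrophil call was Casp4, at 64.1 CPM in KO (36 UMIs) and 28.9 in WT (34 UMIs), 2.22-fold (1.35 to 3.66) higher, and it was under 2-fold under 6 alternatives, among them the wider naming (1.45, 1.08 to 1.93). Zbp1 in neutrophils had too few UMIs under the fixed naming, and with the wider naming it was at 43.7 CPM in KO and 164 in WT (0.267, 0.186 to 0.372).

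Smaller genotype differences exceeded counting error but have no replicate, and the share of all genes that did so was not counted. In neutrophils at 24 h, KO stood below WT for Zbp1 (0.598, 0.486 to 0.738), Casp8 (0.634, 0.544 to 0.741) and Casp4 (0.756, 0.662 to 0.866), and above it for Ninj1 (1.32, 1.24 to 1.41). In monocyte/macrophage cells Ninj1 was 1.23-fold (1.17 to 1.29) higher in KO in the shams and 1.30-fold (1.25 to 1.35) higher at 24 h, and lower at 72 h (0.842, 0.811 to 0.874). Casp8 there was level at 24 h (0.994, 0.915 to 1.08) and lower in KO at 72 h (0.786, 0.724 to 0.853).

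Likeness between genes was described over 38 pairs of library and class, by Pearson's r of log2(CPM + 1) among 7395 genes. These pairs share libraries, depth and cell composition, so no p is given. Ninj1 was most like Card19 (0.95), its neighbour on chromosome 13, which lies 6705 bases away on the opposite strand, then Clec4d (0.91) and Cd300ld (0.90). Zbp1 was most like Capg (0.90), Dhx58 (0.89) and Il18 (0.88), and Casp8 most like Il2rg (0.93), Crybg1 (0.88) and Casp1 (0.88). Mlkl was most like Lima1 (0.91), Plod3 (0.90) and Vat1 (0.89), and Ripk3 most like Dera (0.89), Anapc15 (0.88) and Ap2s1 (0.87). Gsdmd was most like Slc12a9, Man2b1 and Vsir (0.86 each), Gsdme most like Il1rap (0.84), Casp4 most like Nt5e (0.84) and Ripk1 most like Atp1b3 (0.83). Among the 9 genes themselves the highest pair was Casp8 with Ripk3 (0.78), then Gsdmd with Zbp1 (0.71), and the lowest was Gsdme with Mlkl (-0.33). Ripk3 with its substrate Mlkl gave 0.43.

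Other genes of the same pathways were counted from 7 lists, over the 4 classes together. From 24 h to 72 h in WT and KO, the non-canonical inflammasome and guanylate-binding list had 10 higher and 7 lower of 48, and 10 higher and 3 lower of 47, a share of 35.4% and 27.7% that passed 2-fold, where 22.8% and 19.7% of all genes did. Irf7, an interferon regulatory factor, went in monocyte/macrophage cells from 57.6 to 340 CPM in WT (5.91-fold, 5.39 to 6.48) and from 60.8 to 146 in KO (2.40-fold, 2.22 to 2.61), and KO stood below WT at 72 h (0.430, 0.405 to 0.456). Tlr4, the surface lipopolysaccharide receptor, went in WT neutrophils from 84.7 to 248 CPM at 24 h (2.93-fold, 2.36 to 3.67) and to 37.4 at 72 h (0.151, 0.109 to 0.204). The inflammasome list had 5 higher and 2 lower of 41 at 24 h against sham in WT and 4 and 4 of 43 in KO (17.1% and 18.6%, against 5.95% and 6.14% of all genes). From 24 h to 72 h it had 3 higher and 8 lower of 38 in WT and 10 higher and 2 lower of 44 in KO (28.9% and 27.3%, against 22.8% and 19.7%). Il1a, an alarmin cytokine, was 4.99-fold (2.96 to 9.07) higher in WT neutrophils at 24 h, and KO stood below WT there (20.3 against 69.0 CPM, 0.295, 0.239 to 0.363).

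From 24 h to 72 h the list of necroptosis control genes had 2 higher and 10 lower of 69 in WT (17.4%, against 22.8% of all genes) and 1 higher and 3 lower of 72 in KO (5.56%, against 19.7%). The WT share is near the background. Tnfaip3, which encodes the ubiquitin editor A20, went in named WT neutrophils from 91.2 CPM in the sham to 226 at 24 h and 91.8 at 72 h. These values leave out cluster 6, led by Tnf and Tnfaip3. That cluster held 402, 200 and 136 cells in those libraries, beside 438, 855 and 554 named neutrophils, and its part was not tested. Cflar, whose product c-FLIP restrains caspase-8, went from 160 to 74.8 CPM in named WT neutrophils from 24 h to 72 h (0.468, 0.369 to 0.587). The membrane repair list had 4 higher and 0 lower of 55 in WT (7.27%, against 22.8%) and 3 higher and 0 lower of 56 in KO (5.36%, against 19.7%), with Anxa2 in WT fibroblasts at 2.18-fold (2.02 to 2.35).

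The apoptosis list had 9 higher and 7 lower of 58 in WT and 12 higher and 6 lower of 61 in KO from 24 h to 72 h (27.6% and 29.5%, against 22.8% and 19.7% of all genes). In neutrophils alone, the shares of all genes past 2-fold were 41.0% in WT and 37.3% in KO. There Bax, the mitochondrial pore gene, was 7.92-fold (6.21 to 10.2) higher in WT and 5.98-fold (4.79 to 7.43) higher in KO, and Pmaip1 was 6.24-fold (4.74 to 8.28) and 3.04-fold (2.32 to 3.92) higher. Bcl2l1, a survival gene, was lower in both (0.295, 0.226 to 0.380, and 0.277, 0.177 to 0.414), as was the death receptor gene Fas (0.185, 0.136 to 0.248, and 0.308, 0.205 to 0.444). The ferroptosis list had 4 higher and 5 lower of 40 in WT and 3 higher and 2 lower of 38 in KO (22.5% and 13.2%, against the same shares). The list of released danger signals had 3 higher and 6 lower of 29 in WT and 3 and 3 of 29 in KO (31.0% and 20.7%), with S100a9 in neutrophils at 0.384 (0.379 to 0.388) and 0.335 (0.330 to 0.341). KO against WT at 72 h, the fibroblast members of these lists included Pycard, at 140 against 32.0 CPM (4.38-fold, 3.53 to 5.48), which stood at 37.9% of its monocyte/macrophage level in KO, close to the marker list.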

How the data were processed

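Per the labels' protocols, live non-cardiomyocytes of 4 mice were pooled per library and sequenced with the 10x 3′ chemistry. The authors deposited UMI counts, as whole numbers for each gene in each cell, made with Cell Ranger 6.0.0 on mm10, per the submitters' processing notes. The annotation and the strand setting are not given in the sources used here. Every deposited cell had at least 500 UMIs, and 20995280 to 45649061 UMIs were deposited per library.

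Cells needed at least 200 genes and at most 20% mitochondrial UMIs. Scrublet in scanpy 1.11.5 scored doublets. Its automatic threshold marked 0 to 52 cells per library, and the highest scores were removed instead at 0.8% per 1000 cells (1708 cells). The 2000 most variable genes, without the 9 genes, Trpm4, mitochondrial, ribosomal and hemoglobin genes, gave 30 components, 20 neighbours and Leiden clusters at resolution 1. A cluster was named when at least 3 markers of a class were among its 50 leading genes and no other class led its top 10.

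UMIs were summed per class and library. Levels have exact Poisson, shares exact Clopper-Pearson and ratios exact conditional 95% intervals, and a count of 0 allows 3 counts. They cover counting error only, not the spread between mice, operations or preparations. The ratio step was tested on simulated counts. Genes named from the lists needed 20 CPM and 0.25 of the level of the highest class, and at most 2 were taken each way per class. The 9 genes and the lists were chosen with earlier results of these data known. Alternatives were 2 other Leiden resolutions, no doublet removal, a UMI minimum, thinning, a mean over cells, scaling to the median gene, 20 UMIs over the pair, the 9 genes among the clustering genes, a mitochondrial limit of 10%, and 3 added after seeing the data: the wider naming, and leaving out the clusters led by interferon-induced genes or those with over 90% of cells from KO at 72 h. Positions are from GENCODE M21 (GRCm38) and promoter windows from RefSeq (GRCm38.p6).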

Additional observations from a re-analysis of the deposited data

Results flagged for a closer look

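In 3 cases a gene's level differed in opposite directions in WT and KO, each beyond counting error. The difference between the genotypes was not tested, and each direction rests on 1 library per group. Casp4 in neutrophils at 24 h against sham was higher in WT (ratio 1.36) and lower in KO (0.717), and with the wider naming the ratios were 1.17 (1.0 to 1.37) and 0.710 (0.609 to 0.832). Casp8 in monocyte/macrophage cells from 24 h to 72 h was higher in WT (1.10) and lower in KO (0.867). Without cluster 14 the WT ratio was 0.978 (0.899 to 1.06), so the opposite direction ended, and the KO ratio was 0.823 (0.750 to 0.902). Ninj1 in the same cells was higher in WT (1.14) and lower in KO (0.739), and without cluster 14 the ratios were 1.19 (1.14 to 1.24) and 0.752 (0.723 to 0.782). The latter 2 comparisons include the shallow KO library at 72 h, whose monocyte/macrophage cells had a median of 1294 UMIs against 11659 in WT.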

How the results depend on the processing

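Each result was recomputed under 13 alternatives. For the 16 differences past 2-fold this gave 197 ratios, of which 174 stayed past 2-fold in the same direction, 20 were under 2-fold in the same direction and 3 reversed. Gsdme in WT fibroblasts at 24 h against sham reversed to a log2 ratio of 0.13 at Leiden resolution 0.5 and to 0.13 with the wider naming, and Zbp1 in WT neutrophils from 24 h to 72 h reversed to 1.11 with the wider naming. Ripk3 in fibroblasts from 24 h to 72 h stayed past 2-fold under every alternative run, at log2 ratios of 2.57 to 3.91 in WT and 1.67 to 3.5 in KO. The class with the highest level of a gene in a library was less stable. Where it was recomputed, it was the same in 246 of 324 cases and changed in 78.

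Counts of calls that moved by over 1.5 times were as follows. For 24 h against sham in WT (3), 1 call was left at Leiden resolution 2 and 1 with thinning, and in KO (0) 1 call, Ripk3 in endothelial cells, came up at Leiden resolution 2, with the mitochondrial limit of 10% and with the wider naming. From 24 h to 72 h in WT (5) there were 3 calls with thinning and 8 each with a mean over cells and on the scale of the median gene. Between genotypes at 24 h (0) there was 1 call at Leiden resolution 0.5 and with the wider naming, Zbp1 in fibroblasts at a log2 ratio of -1.46. At 72 h (2) there was 1 call at Leiden resolutions 0.5 and 2, without doublet removal, with the 9 genes among the clustering genes and with the mitochondrial limit of 10%. The cause of these moves was not tested. No paired analysis was possible because each group has 1 library, so the groups share fewer than 2 replicate numbers. Depth limits Mlkl and Ripk3 in neutrophils and Gsdme in endothelial cells most, each with at most 30 UMIs per library.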

Other observations

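Outside the named classes, 2 clusters stood out for these genes. Cluster 19, with 513 cells from all 6 libraries and led by Apln, Pgf and Kit, placed with the endothelial cells by the wider naming, had Ripk3 at 54.8 CPM (47.1 to 63.4) and Mlkl at 36.2 CPM (30.0 to 43.3) over all libraries, with Casp8 at 110 CPM, Zbp1 at 11.9 CPM and Gsdme at 4.56 CPM. By library its Ripk3 level was 35.7 CPM in WT sham, 29.6 in KO sham, 61.8 in WT at 24 h, 61.1 in KO at 24 h and 65.4 in WT at 72 h, and its 38 cells in KO at 72 h were too few for a level. Cluster 6, with 1559 cells, led by Tnf and Tnfaip3, had Casp4 at 133 CPM (122 to 145) and Mlkl on 1 UMI. Its Ninj1 level was 1094 CPM in WT sham, 1013 in KO sham, 996 in WT at 24 h, 1040 in KO at 24 h, 1307 in WT at 72 h and 897 in KO at 72 h.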
